A study of Drosophila melanogaster with 2 samples.

Results

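Of the 3995 binding regions that the authors kept for CG18476-eGFP in Drosophila embryos, 973 (24.4%) had their summit 1 to 500 bp upstream of the nearest transcription start site (TSS), at a protein-coding gene without a divergent neighbour. The nearest TSS was taken over all annotated genes, the summit had to lie upstream in that gene's own direction, and summits within 500 bp of a divergent pair of TSSs of different protein-coding genes were set apart. The other peaks of the set were 168 downstream of such a TSS, 749 at divergent pairs, 132 nearest to a noncoding TSS and 1973 more than 500 bp from any TSS (distal). Chromatin immunoprecipitation and sequencing was done with an antibody against GFP in whole embryos of 0 to 24 h, of both sexes, from a stable transgenic line that makes the product of CG18476 with GFP at its carboxyl end. The 2 libraries are biological replicates 1 and 2 of this 1 group, and both carry the transgene. The promoter that drives the fusion is not named in the labels, and an untagged strain was not analysed here. Embryos of every stage and tissue were mixed, so strong recovery in few cells and weak recovery in many cannot be told apart.

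A gene's promoter joins the core sequence at the TSS, where RNA polymerase II is loaded, with a stretch just upstream that is often kept free of nucleosomes and holds sites for activators. In flies, promoters of genes active in nearly all cells often carry the DNA replication-related element (DRE), bound by Dref, or Motif 1, bound by M1BP. Developmentally regulated promoters more often carry a TATA box, bound by the TATA-binding protein, or GAGA repeats, bound by the GAGA factor that the gene Trl encodes. A promoter shared by a head-to-head gene pair has no single direction, whereas each peak described here can be placed by its distance in front of 1 gene.

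The sequences below, from the RefSeq Release 6 assembly (dm6), show what the members' promoters held. First come 40-base stretches around the 8-mer CACAGTGG, in capitals, from 8 of the strongest members that hold it in front of the TSS, each read on the strand that spells it. This 8-mer had the lowest p of all 8-mers in the promoter scan described later.
Rtnl1: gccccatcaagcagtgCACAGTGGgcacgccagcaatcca
RluA-1: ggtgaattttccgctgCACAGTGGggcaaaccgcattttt
PAN3: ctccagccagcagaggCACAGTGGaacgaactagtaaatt
RapGAP1: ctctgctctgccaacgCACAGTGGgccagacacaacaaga
spi: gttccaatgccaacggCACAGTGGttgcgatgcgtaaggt
by: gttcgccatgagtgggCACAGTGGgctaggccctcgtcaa
CG31431: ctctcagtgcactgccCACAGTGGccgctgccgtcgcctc
CG31808: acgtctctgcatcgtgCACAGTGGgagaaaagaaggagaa
These lie at chr2L:4997558-4997597 (Rtnl1), chr2L:10474403-10474442 (RluA-1), chr3L:3081315-3081354 (PAN3), chr2L:7530621-7530660 (RapGAP1), chr2L:19575654-19575693 (spi), chr3R:9533138-9533177 (by) and chr3R:21870608-21870647 (CG31431), all read on the plus strand, and at chr2L:16716369-16716408 (CG31808), read on the minus strand. Next come the 250 bases before the TSS of CG18549 and of Btk, a tyrosine kinase gene. They are read in the gene's direction, with GAGAGAG or its reverse complement in capitals, and are shown because GAGAGAG had the lowest p of the 20 known motifs in the promoter comparison.
CG18549: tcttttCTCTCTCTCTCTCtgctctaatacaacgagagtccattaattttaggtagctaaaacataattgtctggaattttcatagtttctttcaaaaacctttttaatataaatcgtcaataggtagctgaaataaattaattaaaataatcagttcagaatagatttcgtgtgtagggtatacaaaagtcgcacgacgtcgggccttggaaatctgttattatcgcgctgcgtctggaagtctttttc
Btk: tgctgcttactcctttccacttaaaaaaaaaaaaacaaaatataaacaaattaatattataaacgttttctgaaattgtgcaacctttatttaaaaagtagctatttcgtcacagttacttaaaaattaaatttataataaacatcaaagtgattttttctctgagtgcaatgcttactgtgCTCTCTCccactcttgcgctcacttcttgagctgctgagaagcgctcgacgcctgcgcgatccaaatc
They lie at chr3R:12449046-12449295 (plus strand) and chr2L:8277703-8277952 (minus strand). The summit lies 120 bp before the TSS of CG18549 and 155 bp before that of Btk. Last come windows of the summit base and 50 bases to either side, in the gene's direction. Those of CG33229 and Ugalt are shown as the members of highest signal after ptc, and hold neither the DRE nor TATAAA. The window of CG18476, the gene of the tagged protein, holds TATAAA on the other strand, in capitals. Those of eEF1gamma and ifc hold the DRE, TATCGATA, in capitals.
CG33229: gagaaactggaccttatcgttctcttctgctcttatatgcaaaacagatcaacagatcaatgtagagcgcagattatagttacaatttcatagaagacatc
Ugalt: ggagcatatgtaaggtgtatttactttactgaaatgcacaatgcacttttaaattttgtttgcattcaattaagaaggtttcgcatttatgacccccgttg
CG18476: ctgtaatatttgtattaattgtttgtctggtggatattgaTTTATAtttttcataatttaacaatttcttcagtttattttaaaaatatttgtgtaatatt
eEF1gamma: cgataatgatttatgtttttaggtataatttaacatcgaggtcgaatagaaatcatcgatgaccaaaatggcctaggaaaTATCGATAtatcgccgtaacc
ifc: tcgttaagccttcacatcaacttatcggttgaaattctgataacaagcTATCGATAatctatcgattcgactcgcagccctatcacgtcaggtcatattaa
These windows are chr3L:223659-223759 (plus strand), chrX:2703833-2703933 (minus strand), chr3R:11678216-11678316 (minus strand), chr3R:29220051-29220151 (plus strand) and chr2L:5986261-5986361 (plus strand).

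The members' summits were most frequent over 100 to 200 bp in front of their genes. The median distance from summit to TSS was 191 bp (interquartile range 122 to 298), and the fullest stretches, over 100 to 150 bp and over 150 to 200 bp, had 165 members each. Only 68 summits lay within 50 bp of the TSS, and 139 lay over 300 to 400 bp and 100 over 400 to 500 bp away. The downstream peaks had a different profile: their median distance past the TSS was 132 bp (interquartile range 52.8 to 344). The rule fixes the sign of the distance and its limit. Taking the nearest TSS and setting divergent pairs apart can also bear on its shape, which was not tested. At the ends of the rule, the summit at CG10479 lay 500 bp upstream with a signal of 282 and that at jar, which encodes myosin VI, 498 bp upstream with 173. At RpL7A, a ribosomal protein gene, the summit lay 1 bp upstream with a signal of 76.1, and Sobp and Cont, which encodes contactin, had theirs 3 bp upstream with 164 and 64.9. Just outside, the summits nearest to ush, CG4496 and rols lay 503 bp away with signals of 79.4, 335 and 129.

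**Figure D1:**
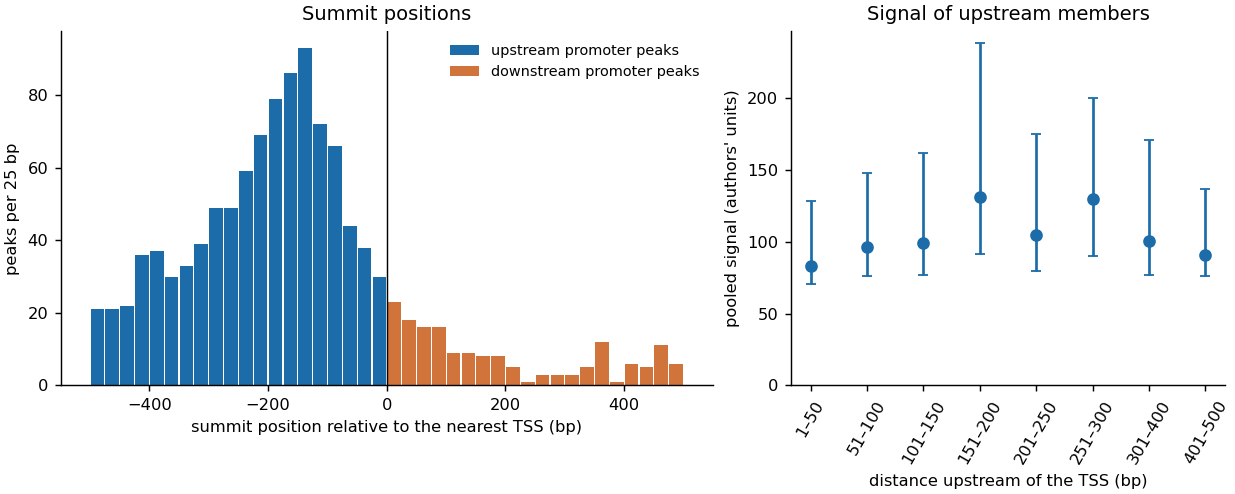
Left, number of summits per 25 bp by position relative to the nearest TSS, for the 973 upstream members and the 168 downstream peaks. Right, median pooled signal of the upstream members by distance, in the authors' units, with bars from the lower to the upper quartile. Members over 150 to 200 bp upstream had a median of 131 and those 1 to 50 bp upstream 83.0.

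Signal varied with that distance. It is the authors' own value for the pooled reads of both libraries, close to the sum of the values in the replicates. Depth is unknown from these lists. Over all members its median was 105 (interquartile range 78.0 to 170) and its highest value 1727. The median was 83.0 among the 68 members within 50 bp of the TSS, 96.3 at over 50 to 100 bp and 99.2 at over 100 to 150 bp. It was 131 at over 150 to 200 bp, 104.8 at over 200 to 250 bp and 130 at over 250 to 300 bp, so the order with distance was not smooth. It was 100.7 at over 300 to 400 bp and 91.0 at over 400 to 500 bp. The quartiles of all these stretches overlapped, and no test was made between them. Members at a TSS other than the most 5′ one of their gene had a median of 114 (329 members), against 103 for the 644 at the most 5′ TSS.

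Upstream members were more often among the stronger peaks than downstream or distal ones. Of the 973 members, 541 (55.6%, 95% interval 52.4 to 58.8) exceeded 98.2, the median signal of the whole set, against 76 of 168 downstream peaks (45.2%, 37.6 to 53.1). The odds ratio was 1.52 (1.08 to 2.14, adjusted p = 0.0224, Fisher's exact test, two-sided, adjusted over 3 comparisons). Against distal peaks, of which 895 of 1973 (45.4%) exceeded it, the odds ratio was 1.51 (1.29 to 1.77, adjusted p = 5.48e-07, Fisher's exact test). Divergent promoter peaks had 417 of 749 (55.7%), and the odds ratio of 0.997 had an interval from 0.819 to 1.21 (adjusted p = 1.0, Fisher's exact test). The contrast with downstream peaks lost its call with a promoter distance of 1000 bp (1.27, adjusted p = 0.0829) and with only the most 5′ TSS of each gene (1.34, adjusted p = 0.185, Fisher's exact test). These tests count peaks, not embryos.

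The threshold itself acted on signal. Every one of the 3995 kept regions, the lowest at 60.58, had a higher signal than every other region of the pooled list, whose highest reached 60.56. Of the 29999 pooled regions on the arms studied, 13.3% were kept. Of those placed upstream of a TSS by the same rule, 973 of 3767 were kept (25.8%, 24.4 to 27.3), against 168 of 2038 downstream (8.24%, 7.09 to 9.52), 39.99% of 1873 at divergent pairs and 9.26% of 21296 distal ones. No test was made of these shares.

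The strongest members stood at genes of quite different roles. The gene of the Hedgehog receptor, ptc, had its highest point 263 bp upstream, with 780 in replicate 1 and 946 in replicate 2 (pooled 1727). CG33229 had 704 in replicate 1 and 690 in replicate 2 (pooled 1405) at 143 bp. Ugalt, which encodes a UDP-galactose transporter, had 514 in replicate 1 and 815 in replicate 2, with a summit only 31 bp upstream. Replicate 2 was thus the higher at ptc and Ugalt and slightly the lower at CG33229.

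The next members by signal were at CG14100, wech, nac, px and Rtnl1. The peak at wech, which encodes a TRIM protein that links integrins to the cytoskeleton, lay 413 bp upstream with 527 in replicate 1 and 597 in replicate 2. nac, which encodes a GDP-fucose transporter, had 511 in replicate 1 and 565 in replicate 2 at 47 bp. Rtnl1, a reticulon gene of the endoplasmic reticulum, had 426 and 529 at 220 bp. CG14100 had 511 and 658 at 97 bp, and px, a gene of wing vein patterning, had 460 and 574 at 192 bp. All of these were higher in replicate 2.

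The other 17 of the 25 strongest had pooled signals from 506 to 768. ph-p, which encodes the Polycomb protein Polyhomeotic proximal, had 295 in replicate 1 and 481 in replicate 2, with the summit 442 bp upstream. The ratio of 1.63 was the highest among the 25 strongest members. Its near-identical neighbour ph-d also had a member, of pooled signal 64.4, and reads from the 2 copies may not have been told apart. mRpL41, a mitochondrial ribosomal protein gene, had 382 and 385. Gapdh2, which encodes a glycolytic enzyme, had 245 and 331, and aay, which encodes phosphoserine phosphatase, had 287 and 317. ITP, which encodes an ion transport peptide, was higher in replicate 1, with 337 against 316 in replicate 2. The remaining members of the 25 were at CG18549 (pooled 759), Tina-1 (715), larp, which encodes a La-related RNA-binding protein (652), CG1888 (637), CG31145 (630.2), SLC5A11, a solute cotransporter gene (625), and CG1635 (583). They ended with Fkbp14, a prolyl isomerase gene (552), RluA-1 (550.2), gish, which encodes casein kinase 1 gamma (517), PAN3, which encodes a subunit of a poly(A) nuclease (509), and Sox14, an HMG-box factor gene (506).

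**Figure D2:**
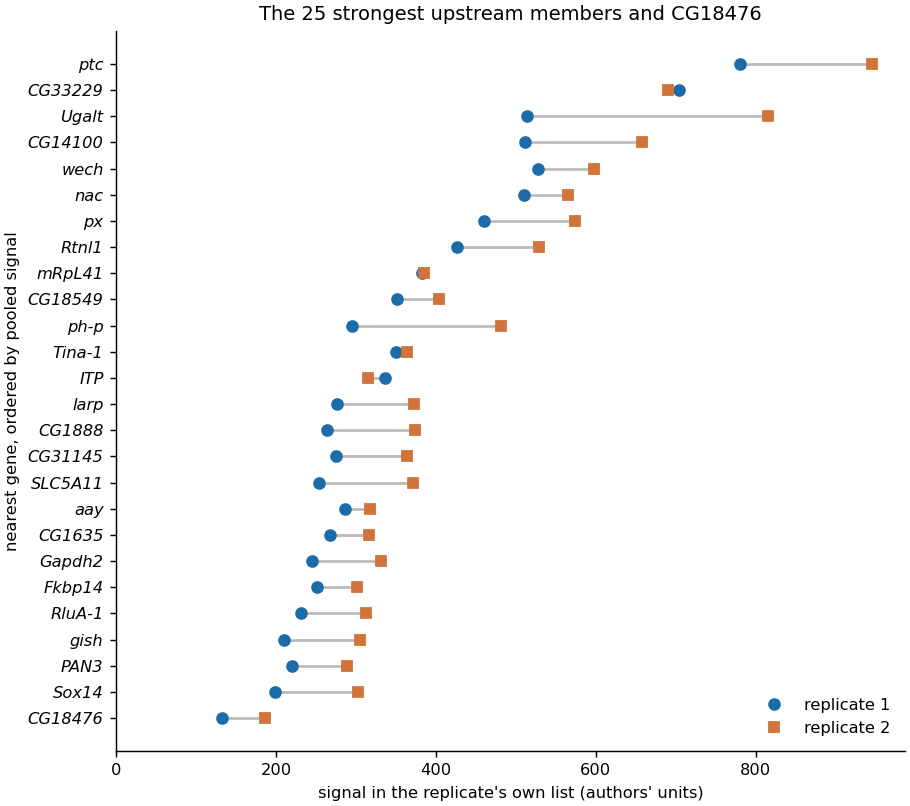
Signal in each replicate's own list for the 25 members of highest pooled signal and for CG18476, with a line joining the replicates of each peak. ptc had 780 in replicate 1 and 946 in replicate 2, and CG18476 had 133 in replicate 1 and 187 in replicate 2.

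Replicate agreement was measured in the authors' list for each library. Among the 850 members with a region in both full lists that overlapped by at least 0.5 of both lengths, the signal in replicate 2 was a median of 1.23 times that in replicate 1 (interquartile range 0.956 to 1.55). Replicate 2 was the higher in 601 of them (70.7%), and the ratio lay above 2 or below 0.5 in 99. Across these members Spearman's rho was 0.654, given as a description. The 25 strongest had ratios from 0.937 to 1.63. The 3 lowest and 3 highest ratios were at 5 genes. At CG31635, 2 members matched the same region, of 173 in replicate 1 and 18.2 in replicate 2, a ratio of 0.105. At ctrip the ratio was 7.85 (8.93 in replicate 1, 70.1 in replicate 2) and at Tsp42El, a tetraspanin gene, 7.80 (18.5 in replicate 1, 144 in replicate 2). At Pgm1, which encodes phosphoglucomutase, it was 7.14 (10.99 in replicate 1, 78.5 in replicate 2), and at Act5C, a cytoplasmic actin gene, 0.173 (64.8 in replicate 1, 11.2 in replicate 2).

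Matching within the 3995 strongest regions of both replicates succeeded for 637 of 973 members (65.5%, 62.4 to 68.5), against 104 of 168 downstream peaks (61.9%, 54.1 to 69.3). The odds ratio of 1.17 had an interval from 0.817 to 1.66 (p = 0.382, Fisher's exact test). The authors kept the set by a measure of reproducibility, and it holds the regions of highest pooled signal. These shares are therefore not independent evidence of reproducibility. Most unmatched members were narrow: of the 123 members not matched in both full lists, 116 were narrower than 430 bp, the width of 74.4% of members. By an overlap of 1 bp or more, 972 of the 973 members had a region in both full lists. The 242 narrower members were also the stronger ones, with a median signal of 248, against 90.1 for those 430 bp wide. Rme-8, MFS18 and CG10527, with pooled signals of 349, 328 and 320, were strong and yet unmatched in either list. Their widths were 388, 189 and 405 bp, and why they went unmatched was not tested.

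The 973 members lay at 920 TSSs of 881 genes, 6.32% of the 13945 protein-coding genes on the arms studied. A single member was the rule: 798 genes had 1, 75 had 2, 7 had 3 and Rtnl1 had 4. The 4 at Rtnl1 lay in front of different TSSs in its own introns, with signals of 952, 249, 157 and 78.7, so that 1 of them far exceeded the rest. Genes with 3 members included Mhcl, Moe, which encodes the cytoskeletal linker Moesin, larp, RapGAP1 and spi, which encodes a ligand of the EGF receptor. Summits in no annotated gene numbered 547 (56.2%). A further 265 (27.2%) lay in an intron of their own gene and 32 in an exon of it. Another gene alone was overlapped by 62 on the opposite strand and by 35 on the same strand. For 29 members, TSSs of more than 1 gene were equally near, and only 1 protein-coding gene was named. Among the arms, the share of genes with a member ran from 5.83% on 2L to 6.92% on X, and chromosome 4 had it at 4 of 80 genes.

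A scan of every 8-mer, both strands merged, found CACAGTGG far more often in members' promoters than in promoters of genes with no listed region within 500 bp. The promoter windows ran from 250 bp before to 50 bp after the TSS. Here and below, members' windows were at the TSS nearest to the peak. Those of genes without a region, and of all genes, were at the most 5′ TSS. CACAGTGG lay in 69 of 920 member promoters (7.50%), against 33 of 5350 promoters without a region (0.617%), a ratio of 12.2 (adjusted p = 5.68e-30, Fisher's exact test, adjusted over 32665 8-mers). It had the lowest p of the scan, in which 228 8-mers (0.698%) passed, 213 of them more frequent in members and 15 less. The second, CACTGTGC, overlaps its reverse complement (63 against 41 promoters, 6.85% against 0.766%), and 13 of the 25 of lowest p held GAGAG on either strand. The scan was added after the data were seen, and promoters of the same gene are not independent. CACAGTGG remained first with each replicate's list alone (ratios of 12.4 and 11.1), with 1 TSS per gene (12.1), in the upper 1997 peaks (14.2) and against every other gene without a member (7.48). It also stood first in windows of 100 bp before the TSS (22.6).

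The sites of this 8-mer had a preferred direction. Their place was not tested, and only the window from 250 bp before to 50 bp after the TSS was searched. The 69 promoters, of 67 genes, held it at 74 distinct positions, with a median of 91.0 bp before the TSS (interquartile range 163 to 73.8 bp before it). Of these, 58 sites read CCACTGTG on the gene's strand and 16 read CACAGTGG (p = 9.67e-07, exact binomial test, two-sided, added after the data were seen). As in the stretches printed above, the base before CACAGTGG was G at 54 of the 74 and the base after it was G at 37. Of the sites, 58 (78.4%) lay between summit and TSS, and 13 lay upstream of the summit. Only 8 fell within 50 bp of the summit, and the median site lay 98.5 bp from it towards the TSS. Across all members, 58.8% of the promoter bases lay between summit and TSS.

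Members with the 8-mer ranged over many roles. Their median signal was 154 (interquartile range 90.1 to 259), against 107 for member TSSs without it, with no test made. By summit windows, which also reach beyond the promoter windows, the signal went the other way. The 21 members with it there had a median of 89.7, against 106 for the other members, also without a test. Of the 21, 7 exceeded the median of the whole set. The strongest with it in the promoter was Rtnl1 (426 in replicate 1 and 529 in replicate 2). It was followed by Tina-1 (350.0 and 364 in the same replicate order), RluA-1 (231 and 313), PAN3 (220 and 289) and chn, which encodes the zinc finger factor Charlatan (189.9 and 202). spi had 182 in replicate 1 and 184 in replicate 2, and by, which encodes tensin, had 130 and 225. Developmental regulators were among them too: fkh, a forkhead factor gene, had 90.9 in replicate 1 and 172 in replicate 2, and tin, the homeobox gene of heart precursors, had 63.7 and 111. Wnt6, a Wnt ligand gene, had 46.7 and 30.3. All but Wnt6 were higher in replicate 2 than in replicate 1.

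The share of promoters with the 8-mer was set side by side, without a test, for other kinds of promoter. It lay in 7.50% of member promoters (95% interval 5.88 to 9.40), in 2.99% of 167 promoters with a downstream peak (0.979 to 6.85) and in 3.36% of 743 at divergent pairs (2.19 to 4.93). It lay in 2.33% of 2579 promoters with an upstream region below the threshold (1.78 to 2.98) and in 1.28% of all promoters. The share of all promoters was taken at the most 5′ TSS, where the 8-mer lay in 6.53% of member promoters, against 9.45% at their other TSSs. At the summits themselves it was not past the threshold: 21 of 973 windows reaching 50 bp to either side of the summit held it, against 2 windows 1000 bp upstream (adjusted p = 0.0633, exact McNemar test). In windows reaching 100 bp to either side it lay in 56 against 5 (adjusted p = 6.14e-08, exact McNemar test), and 40 of the narrower windows centred 100 bp from the summit towards the TSS held it.

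**Figure D3:**
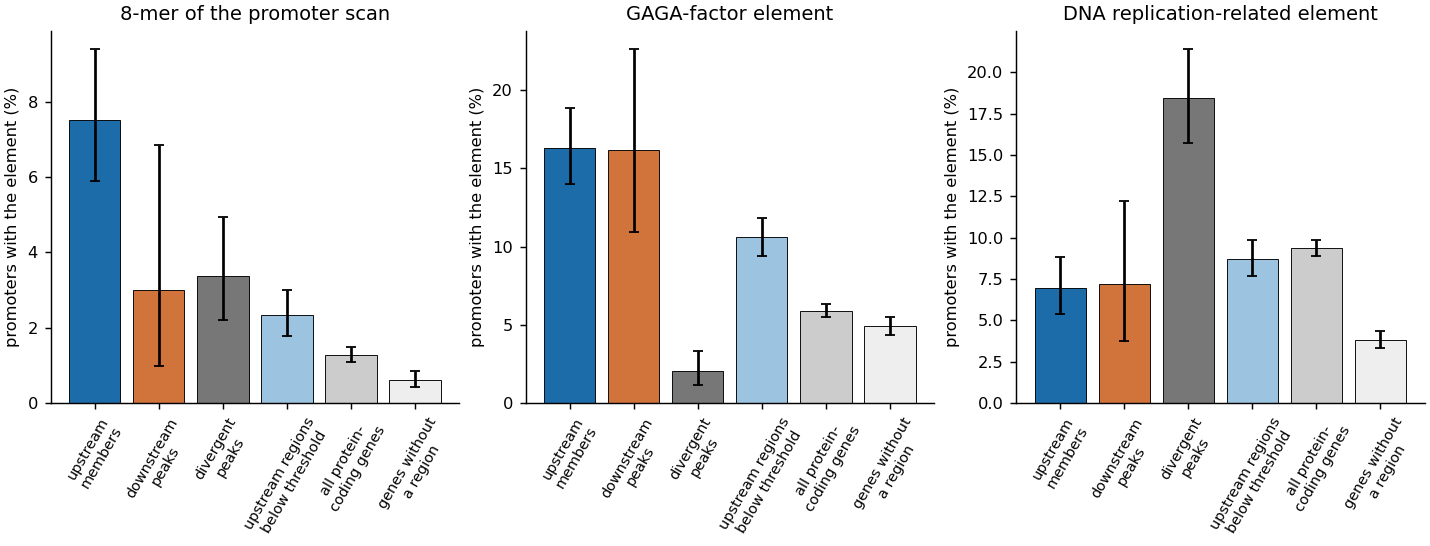
Share of promoter windows, 250 bp before to 50 bp after the TSS, that hold the 8-mer of the scan (left), the GAGA element (middle) or the DRE (right), by kind of promoter, counted over distinct TSSs with exact 95% intervals. The 8-mer was in 7.50% of member promoters and 1.28% of all, and the DRE was highest at divergent pairs, with 18.4%. All genes and genes without a region were counted at their most 5′ TSS, the other kinds at the TSS nearest to the peak or region.

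GAGA repeats marked the members' promoters but not their summits. GAGAGAG, on either strand, lay in 150 of 920 member promoters (16.3%), against 261 of 5350 without a region (4.88%) and 5.87% of all promoters (adjusted p = 5.59e-29, Fisher's exact test over 20 known motifs, of which 11, 55.0%, passed). CTCTCTCT, whose 88 member promoters all also held GAGAGAG since the letters overlap, had 9.57% against 2.32% (all promoters 3.21%, adjusted p = 3.32e-21, Fisher's exact test). The strongest members with GAGAGAG were ptc, wech and px, with signals of 1727, 1129 and 1035, then CG18549 (759), ph-p (744), larp (652), gish (517) and Btk (421). The median signal was 160 with the repeat and 103 without. The share was 22.2% among the 460 member TSSs of highest signal and 10.4% among the 460 of lowest. It was 22.8% at TSSs other than the most 5′ one and 13.1% at the most 5′. The shares of 4.88% and 5.87% above were taken at the most 5′ TSS only. Promoters with a downstream peak had 16.2%, like the 16.3% of members, and those at divergent pairs had 2.02%.

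Within these promoters the repeats sat beside the summit. The 150 promoters held 356 overlapping sites, with a median of 90 bp before the TSS (interquartile range 129 to 64.0 bp before it). Between summit and TSS lay 298 (83.7%), and 15 lay within 50 bp of the summit. Bases between summit and TSS made up 58.8% over all 920 member promoters, not over these 150 alone. Sites within a repeat overlap, and the windows end 250 bp before the TSS, so these shares cannot show which side the repeats prefer. In windows of the same width stepped along the members, GAGAGAG was in 22 at the summit itself and in 19 windows 1000 bp upstream (adjusted p = 1.0, exact McNemar test). It was in 64 windows 200 bp upstream of the summit, and in 58, 60 and 59 windows 100, 200 and 300 bp towards the TSS.

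**Figure D4:**
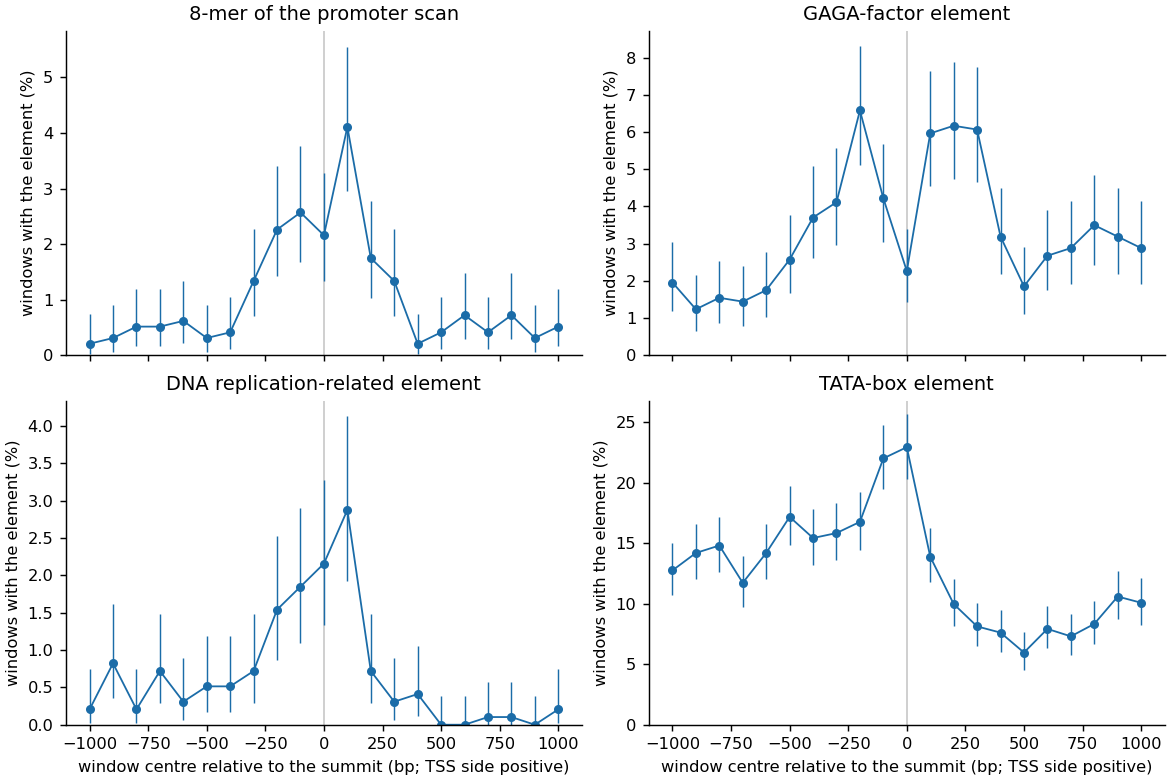
Share of the 973 members with the 8-mer of the scan, the GAGA element, the DRE or the TATA element in a window of 50 bp to either side of each distance from the summit, with exact 95% intervals and the TSS side positive. GAGA was in 2.26% of windows at the summit and in 6.58% at 200 bp upstream of it, whereas TATA was highest at the summit, with 22.9%.

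At the summits, 4 of the 20 known motifs (20%) passed the threshold against the windows 1000 bp upstream. The DRE, TATCGATA, was in 21 summit windows and 2 flank windows (adjusted p = 0.00066, exact McNemar test). It was not most frequent at the summit: 28 windows 100 bp towards the TSS held it, and 18 windows 100 bp upstream. Windows 900, 800 and 700 bp upstream held it in 8, 2 and 7 members, so the contrast varied with the flank. In windows of this width placed 191 bp upstream of all protein-coding genes, the members' median distance, 1.33% held it, against 2.16% at the summits. The 22 DRE sites, searched only within 50 bp of the summit, had a median position 59.0 bp before the TSS. The members with one had summits a median of 82.0 bp upstream, closer than the 191 bp of all members. They were led by ppl, which encodes a glycine cleavage protein (signal 254), Alg3, a mannosyltransferase gene (253), and eEF1gamma, a translation elongation factor gene (223). Of these, ppl and eEF1gamma had no matched region in either replicate and Alg3 had 1 in replicate 2 only. The window of ifc, which encodes a dihydroceramide desaturase, had 77.2 in replicate 1 and 80.9 in replicate 2. The call was lost in windows of 51 bp (adjusted p = 0.0863) and in the upper 1997 peaks (adjusted p = 0.147, exact McNemar test).

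TATAAA was also more frequent at the summits, in 223 windows (22.9%) against 124 in the flank (12.7%, adjusted p = 1.03e-07, exact McNemar test). These sites were searched only within 50 bp of the summit, which in these members lay a median of 196 bp upstream. Their median position, 195 bp before the TSS, follows from that search and cannot show where TATAAA prefers to lie. At 36 to 20 bp before the TSS, the place of a TATA box, TATAAA on the gene's strand was in 33 of 920 member promoters (3.59%), against 10.2% of promoters without a region and 6.40% of all. In windows 191 bp upstream of all protein-coding genes 19.9% held it. The strongest members with it at the summit were CG18549, CG31145 and SLC5A11. Upstream members had it more often than downstream peaks (223 of 973 against 21 of 168 windows, Fisher's exact test, adjusted p = 0.0424), and it alone of 20 motifs passed in that comparison. That call was lost without replicate 1 (adjusted p = 0.189), in windows of 51 bp (0.691) and in the upper 1997 peaks (adjusted p = 0.745, Fisher's exact test). TATAAA at the summit was not particular to upstream members: 27.8% of divergent and 22.3% of distal peaks held it there, with no test made.

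The other calls at the summits were lower counts. CA repeats (CACACACA) were in 8 windows against 27 in the flank (adjusted p = 0.0125, exact McNemar test). GCCAT, the core of the site of the Polycomb recruiter Pho, was in 120 summit windows and 160 flank windows (adjusted p = 0.0499 by the same exact test). The Pho core lost its call without replicate 2 (adjusted p = 0.103, exact McNemar test), in windows of 51 bp and in the upper 1997 peaks. Among all 31012 8-mers tested at the summits, 21 (0.0677%) passed, each more frequent there than in the flank. Of these, 19 held no G or C and the other 2 held 1, with TTAAAAAA (84 windows against 27) leading. None of 13 motifs that can be oriented passed for direction at the summit. Unadjusted p values under 0.05 were found for 2 of them, TCAGT, the Initiator core (unadjusted p = 0.0330), and the Pho core (unadjusted p = 0.0210), in exact binomial tests, both more often on the gene's strand.

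In the promoter windows other motifs passed as well, with smaller contrasts. Motif 1 (core GGTCACAC) was in 5.76% of member promoters against 2.21% without a region (adjusted p = 2.32e-07), and the DRE in 6.96% against 3.76% (adjusted p = 0.00013, Fisher's exact test). Both were nevertheless below their shares in all promoters, 7.70% and 9.36%. Set against every other gene without a member, the ratio turned to 0.750 for Motif 1 and 0.741 for the DRE, so these directions depended on the background. In the upper 1997 peaks the DRE's ratio was 1.06 (adjusted p = 0.900, Fisher's exact test). CA repeats were in 7.61% against 4.24% (all 4.02%, adjusted p = 0.00013) and the E-box CAGCTG in 18.8% against 13.9% (all 17.7%, adjusted p = 0.00041, Fisher's exact test). The CTCF core AGGNGGC (10.0% against 7.63%, all 8.30%, adjusted p = 0.0350) and the BEAF-32 core CGATA, which lies within the DRE (42.1% against 38.1%, all 47.4%, adjusted p = 0.0461, Fisher's exact test), passed narrowly. The BEAF-32 core turned to a ratio of 0.890 against every other gene and 0.958 in the upper 1997 peaks, and lost its call without replicate 1 (adjusted p = 0.154, Fisher's exact test). The CTCF core lost its call without replicate 2 (adjusted p = 0.0884) and in the upper 1997 peaks (adjusted p = 0.112, Fisher's exact test). Against that background CAGCTG (adjusted p = 0.530) and the CTCF core (adjusted p = 0.0988, Fisher's exact test) lost their calls. Lower in member promoters were the Pho core (36.6% against 43.9%, all 41.2%, adjusted p = 0.00013), TATAAA (41.1% against 46.0%, all 45.8%, adjusted p = 0.0160) and the homeodomain core TAATTA (15.4% against 19.1%, all 20.4%, adjusted p = 0.0196, Fisher's exact test). TAATTA lost its call with either replicate's list left out (adjusted p = 0.0634 without replicate 1 and 0.161 without replicate 2, by the same exact test). In the upper 1997 peaks CAGCTG (adjusted p = 0.0645), TATAAA (0.0566) and TAATTA (0.0637, Fisher's exact test) were not past the threshold, and the Pho core was not in windows of 100 bp before the TSS (adjusted p = 0.472, Fisher's exact test).

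Base composition changed sharply along the members. G+C content averaged 33.4% ± 9.28 (SD over 973 windows of 50 bp to either side) at the summit, 41.9% ± 10.9 at 1000 bp upstream and 44.1% ± 11.2 at 1000 bp downstream. It was lower at the summit than upstream in 690 members (70.9%), and lowest, at 32.1%, 50 bp upstream of the summit. Downstream peaks averaged 37.8% ± 9.96, divergent peaks 30.9% ± 8.92 and distal peaks 33.3% ± 8.68. The 100 strongest members had 30.9% ± 7.95 and the 100 weakest 35.9% ± 9.85. Windows 191 bp upstream of all protein-coding genes had 36.3% ± 10.8. The 8-mers past the threshold at the summits, 19 of 21 without a G or C, and TATAAA were more frequent where G+C was lower. The part of composition in these counts was not tested. CACAGTGG, with 5 G or C, was in 21 summit windows and 2 flank windows, and GAGAGAG in 22 and 19.

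The members' genes were then counted in 23 gene lists, set beside the 6.32% of all protein-coding genes with a member and without a test. Among lists of metabolism, glycolysis had 5 of 12 genes with one: Gapdh2 (582), Hex-A, which encodes a hexokinase (307), Eno, which encodes enolase (299.6), Pgk (141) and PyK (75.7). Eno had a matched region in replicate 1 only, of 119.9. Glycosylation and nucleotide-sugar transport had 7 of 41, led by Ugalt (1328), nac (1075) and Alg3, a mannosyltransferase gene (253). With a promoter distance of 250 bp, glycolysis had 3 and glycosylation 7. Oxidative phosphorylation had 0 of 87 genes with a member, although 16 had a divergent peak. Of all 13945 protein-coding genes, 1434 had a divergent peak.

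Genes of protein synthesis were counted by compartment, with no test between the lists. Cytoplasmic ribosomal proteins had a member at 18 of 86 genes and a divergent peak at 27, against a divergent peak at 1434 of all 13945 genes. Their members were weak, with a median signal of 89.4. RpL23A (209), RpS10b (134) and RpL11 (125) led, and 8 remained in the upper 1997 peaks. Mitochondrial ribosomal proteins had a member at 3 of 75 genes, mRpL41 (768), mRpL4 (90.1) and mRpL19 (69.7), and a divergent peak at 25. Translation factors had 5 of 54, led by eEF1gamma (223), eEF1alpha1 (94.0) and eIF2beta (88.1). The proteasome had 1 of 48, Rpn11 (84.9), and aminoacyl-tRNA synthetases 1 of 33, AlaRS (66.3).

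Signalling and stress lists stood above the background by small numbers. Wingless pathway genes had 4 of 21: gish (517), sgg, which encodes GSK3 (244), nkd (119.8) and lgs (62.1). Hedgehog pathway genes had 3 of 20: ptc (1727), sgg, which is on both lists, and rdx (158). At a promoter distance of 250 bp only 1 of these Hedgehog genes remained. Heat shock proteins had 4 of 26: Hsp27 (462), Hsp26 (145), Hsp60A (120) and Hsp22 (113).

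Lists of gene regulation lay near or above the background. Polycomb group genes had 3 of 18, ph-p (744), ph-d (64.4) and Psc (61.4), and the trithorax group and Brahma complex 2 of 21, nej (98.3) and kis (61.7). General transcription machinery had 4 of 63, led by Taf4 (139), TfIIA-S (113) and Polr2F (97.0). Insulator proteins had 1 of 12, BEAF-32 (121), zinc finger factors with a ZAD domain 1 of 14, Sry-delta (103), and cell cycle genes 3 of 44, led by Dp (100.99).

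Lists of developmental and tissue-specific genes were set beside the same 6.32%. Segmentation genes had 2 of 24, nkd and bcd (108), muscle genes 2 of 19, sls (105) and Tm1 (88.7), and neuronal genes 1 of 18, elav, which encodes a neuronal RNA-binding protein (378). At the elav summit, which lies in another gene on the opposite strand, TSSs of 2 genes were equally near. Hox genes had 0 of 8, cuticle proteins 0 of 122 and chemoreceptors 0 of 180, and none of the 3 lists had a divergent peak either. The background for a divergent peak was 1434 of 13945 genes. With either replicate's list alone, 1 Hox gene had a member.

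CG18476 itself was a member. Its peak summit stood 150 bp in front of its TSS, on the minus strand of 3R, and ranked 82 among the members. The signal was 133 in replicate 1 and 187 in replicate 2, and 319 in the pooled list. The transgene carries sequence of the same gene, and its part in this signal was not tested.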

How the data were processed

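The authors listed peaks and background regions for each library and for the pooled reads, and kept a set by irreproducible discovery rate (IDR), as README texts in the deposit state. For alignment and peak-calling software and the IDR cutoff, nothing is given in the sources used here. In each list, signal is the authors' deposited value in their own units, and pooled over summed replicate signal had a median ratio of 1.00 among members. Depth is unknown, so intervals cover the counting of peaks or promoters only. The dm6 lists were used, and the dm3 lists were not.

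Summits were placed by the nearest TSS of Ensembl release 115 on 6 chromosome arms. Sequence came from the RefSeq assembly of the same build. Motifs and 8-mers in windows of 50 bp to either side of the summit were compared with windows 1000 bp upstream by the exact McNemar test. Member promoters (250 bp before to 50 bp after the TSS) were compared with those of 5350 genes with no listed region within 500 bp of a TSS and no divergent partner, and shares between classes likewise, by Fisher's exact test. Windows of these 5350 genes and of all genes were at the most 5′ TSS, and those of members at the TSS nearest to the peak, so the kinds of TSS differ. The 8-mers of the promoter scan were those in at least 8 windows. Values are two-sided, with Benjamini-Hochberg adjustment and a threshold of 0.05. Alternatives were other positions, distances, windows, flanks, backgrounds, overlaps, the upper 1997 peaks and each replicate's 3995 strongest regions alone. Intervals of shares are exact (Clopper-Pearson) at 95%. Members, lists and motifs were chosen with earlier results of these data known. Named genes were the nearest to the 25 strongest members, CG18476, the leading 3 of each list or motif and those at the ends of the distance rule. Others, among them those with CACAGTGG, were chosen after their values were seen. Of the list symbols, 9 matched no gene. Replicates 1 and 2 form 1 group, so no test between groups was possible. The position rule and the motif and 8-mer tests were tested on simulated data. Software was SciPy 1.17.1, pandas 2.3.3 and NumPy 2.4.6 under Python 3.11.15, with Matplotlib 3.10.9 for plots.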

Additional observations from a re-analysis of the deposited data

How the results depend on the processing

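The number of members was 636 with a promoter distance of 250 bp and 541 in the upper 1997 peaks, which also left 506 genes. The odds ratio of stronger peaks against downstream peaks was 1.27 at 1000 bp and 1.34 with the most 5′ TSS only, below the threshold in both. The share matched in both replicates was 79.7% with an overlap of 1 bp, 46.9% with 0.8 of both lengths and 87.4% with all regions of each list. Motifs past the threshold at summits numbered 2 in windows of 51 bp, 9 in windows of 100 bp to either side and 2 in the upper 1997 peaks. Against downstream peaks they numbered 0, 2 and 0 in the same settings, and 0 to 1 without a replicate. At promoters, 5 passed in the upper 1997 peaks. The 8-mers past the threshold at summits numbered 5 in windows of 51 bp, 140 in windows of 100 bp to either side, 1 in the upper 1997 peaks, 94 against the downstream flank and 29 to 35 without a replicate, and 228 in the added promoter scan. The ratio at promoters reversed for the BEAF-32 core (0.958 in the upper 1997 peaks, 0.890 against every other gene), for the DRE (0.741) and for Motif 1 (0.750) against every other gene. Why these changed was not tested. With midpoints in place of summits, 965 of the 973 members were shared. No paired test between groups of samples was possible because the replicates form 1 group. The signal of 2 libraries, the unknown depth and the lack of an untagged strain here limit every value above.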
